A study of Mus musculus with 2 samples.

Results

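The vascular endothelial growth factor (VEGF) family was examined through 8 genes, the ligands Vegfa, Vegfb, Vegfc and Pgf, the receptor tyrosine kinases Flt1 and Kdr, and the co-receptors Nrp1 and Nrp2. The members were chosen by name. Every probe set that the platform annotation assigns to 1 of these genes alone was taken, which gave 20 of 45101 probe sets and 8 of 18193 genes. The cells were RAW264.7, a mouse macrophage-like line, made by chemical transfection to express the mouse nuclear receptor LXRα stably, so the control cells carried the introduced receptor too. For 24 h they received either the solvent DMSO or a mixture of 1 µM GW3965, which activates LXR, and 100 nM LG268, which activates its partner RXR. Each condition was hybridised to 1 Affymetrix mouse array, so no test of the difference was possible, every fold compares these 2 arrays, and neither agonist was measured alone. The sources used here do not say whether the transfected line was 1 clone or a pool.

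VEGF ligands are secreted dimers that bind receptor tyrosine kinases on endothelial cells and drive the growth and leakiness of vessels. Vegfa, a classic hypoxia-induced gene, signals through Kdr (VEGFR2) and also binds Flt1 (VEGFR1), which has a weak kinase and is made in soluble form as a decoy, while Vegfb and placental growth factor (Pgf) bind Flt1 and Vegfc acts mainly on lymphatic vessels. The neuropilins Nrp1 and Nrp2 bind both VEGF ligands and class 3 semaphorins. Macrophages are a source of Vegfa, and monocytes and macrophages use Flt1 as a receptor for chemotaxis.

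The RefSeq promoter sequences of the ligands Vegfa and Vegfb are shown because these were the ligands measured on both arrays, Vegfa with a higher signal after the agonists and Vegfb with nearly equal signals. Each is the 250 bases before the annotated start on the minus strand of GRCm38.p6, chr17:46032378-46032627 for Vegfa and chr19:6987652-6987901 for Vegfb, and capitals mark matches to any of the motifs named next.
Vegfa: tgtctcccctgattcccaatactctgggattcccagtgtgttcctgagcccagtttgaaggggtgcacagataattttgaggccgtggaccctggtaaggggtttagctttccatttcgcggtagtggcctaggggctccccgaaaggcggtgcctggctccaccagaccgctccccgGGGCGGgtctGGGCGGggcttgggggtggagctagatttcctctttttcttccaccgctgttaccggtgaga
Vegfb: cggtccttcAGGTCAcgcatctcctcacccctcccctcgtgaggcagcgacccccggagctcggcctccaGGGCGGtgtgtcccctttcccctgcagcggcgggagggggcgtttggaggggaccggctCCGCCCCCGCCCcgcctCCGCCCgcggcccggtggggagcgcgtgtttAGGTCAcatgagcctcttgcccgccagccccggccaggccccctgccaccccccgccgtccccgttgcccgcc

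Motifs were searched on both strands in these windows for all 8 members, which have 10 annotated windows, and in all 32851 windows of the table. The LXR element, taken as a direct repeat of the half-site AGGTCA with a spacer of 4 bases of any kind, matched in no member window and in 5 of all windows (0.0152%). Only exact half-sites counted, and with so rare a match its absence from 10 windows says little. The half-site AGGTCA alone, which 14.0% of all windows hold, matched 2 times for Vegfb and 1 time for Nrp1, and not in either Vegfa window. The core of the hypoxia response element, ACGTG (16.6% of all windows), was absent from the Vegfa window printed above and matched 1 time in the window of its second annotated start. The GC box GGGCGG (32.7% of all windows) matched 2 times in the printed Vegfa window and 4 times in that of Vegfb. It also matched 5 times for Nrp2, 3 times for Flt1, 2 times each for Kdr and Vegfc, and 1 time for Nrp1. The second Vegfa window held 1 match, 1 Pgf window held 2 and the other Pgf window none. The cyclic AMP element TGACGTCA (1.55% of all windows) matched 1 time for Flt1 and for no other member. These matches describe the letters in short windows and not sites of binding.

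The deposited values are MAS5 signals, 1 per probe set on a linear scale, and both arrays had a trimmed mean of 2500. A floor of 276.4, the median of all non-control probe sets over both arrays, was used as the limit of measurement. A probe set was called measured if its brighter signal exceeded the floor, signals under the floor were raised to it, and a fold against the floor is written as at least N-fold. The arrays carry no replicate error. The disagreement of 2 probe sets of the same gene gave an SD of 0.28 for a probe set's log2 ratio over 4866 genes. It was 0.44 for probe sets of mean signal under 1000, 0.28 from 1000 to 5000 and 0.17 above 5000. This SD covers measurement within the arrays and not variation between cultures. As a check of the treatment, the known LXR targets Abca1, Abcg1, Srebf1 and Mylip were at least 2-fold higher, with log2 ratios of 1.41 to 4.76. Nr1h3, which encodes LXRα, had a log2 ratio of 0.82. All 12 macrophage markers were above the floor on both arrays.

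Vegfa was the only member whose signal was at least 2-fold higher with the agonists, and both of its probe sets were higher. Probe set 1451959_a_at had 2636 with DMSO and 6201 with the agonists, as signals, 2.35-fold higher (log2 ratio 1.23). Probe set 1420909_at had nearly the same DMSO signal, 2644, and 4934 with the agonists, 1.87-fold higher (log2 ratio 0.90), just under the 2-fold limit. The 2 ratios differed by 0.33 on the log2 scale, and each was more than 3 times the within-array SD of 0.28. The first ranked 196th from the highest ratio and the second 534th, among 20731 measured probe sets. In bulk RNA from a culture, more transcript per cell and more cells that make the transcript cannot be told apart. That Vegfa was higher was known when the family was chosen, so its ratio is a description and supports nothing about the choice.

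**Figure D1:**
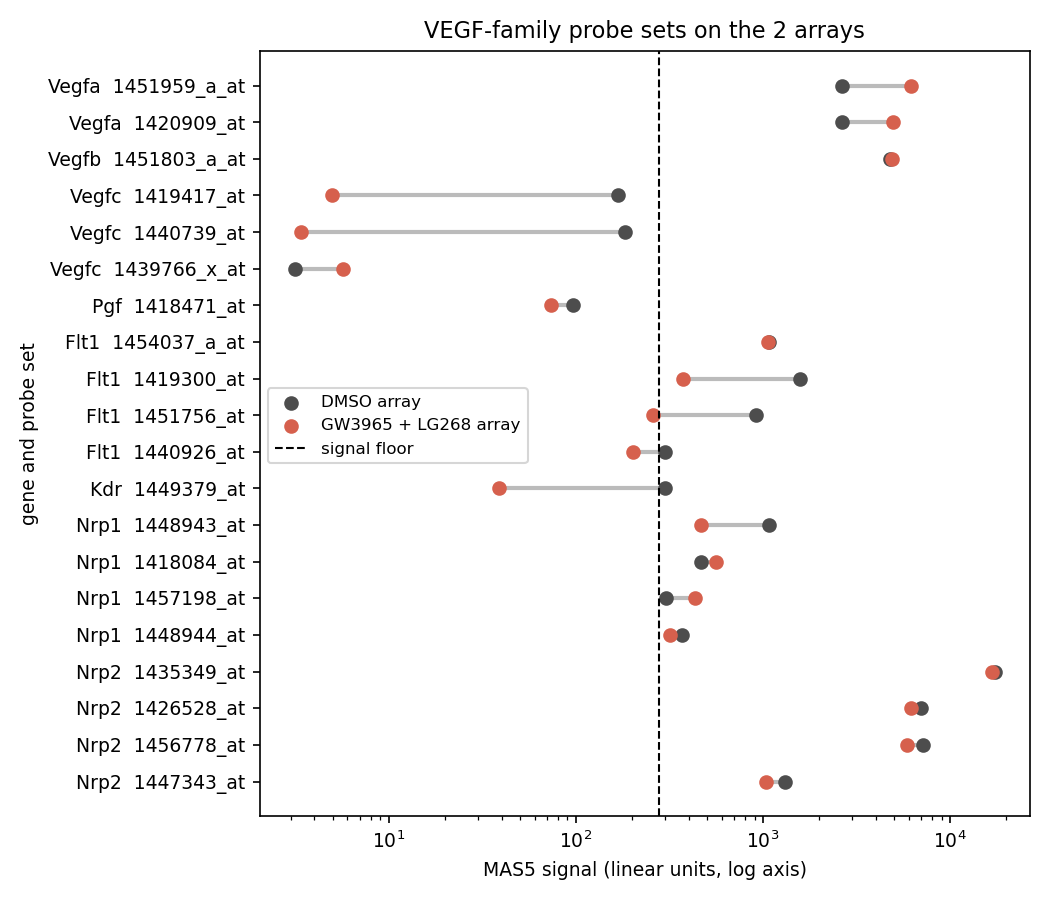
MAS5 signal (log axis) of each of the 20 VEGF-family probe sets on the DMSO array (dark points) and the GW3965 + LG268 array (red points), with the signal floor of 276.4 as a dashed line and no error bars because each group is 1 array. Both Vegfa probe sets lie to the right with the agonists. Far to the left lie 2 of the 4 Flt1 probe sets, 1 of the 4 Nrp1 probe sets and the Kdr probe set. The Vegfc probe sets 1419417_at and 1440739_at do so as well, but all Vegfc and Pgf signals lie under the floor.

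Of the other ligand genes only Vegfb could be measured, and its signals were nearly equal. Vegfb, a ligand of Flt1 linked to fatty acid handling in muscle and heart, had 1 probe set with signals of 4754 and 4894 for DMSO and agonists, 1.03-fold apart. Its log2 ratio of 0.04 lay well within the probe set SD. Vegfc was not measured above the floor by any of its 3 probe sets. Their signals were 169 with DMSO and 4.94 with the agonists, 182 and 3.41, and 3.14 and 5.66. The first 2 were thus both lower with the agonists, but neither array exceeded the floor and no fold is given. Pgf was under the floor as well, at 96.8 and 73.9. The remaining ligand gene of the family, Vegfd, was also under the floor on all 3 of its probe sets, with a highest signal of 104. Over the ligands, Vegfa and Vegfb were therefore the genes with a usable signal in these macrophages.

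Flt1, the receptor of macrophages for Vegfa, Vegfb and Pgf, had lower signals with the agonists on part of its probe sets. Probe set 1419300_at had 1583 with DMSO and 373 with the agonists, 4.24-fold lower (log2 ratio -2.08), which ranked 6th from the lowest among the 20731 measured probe sets. Probe set 1451756_at had 917 with DMSO and 259, under the floor, with the agonists, and was at least 3.32-fold lower. Both differences were several times the probe set SD. Probe set 1454037_a_at gave no such difference, at 1070 and 1057, a log2 ratio of -0.02. Probe set 1440926_at was just above the floor with DMSO (299) and under it with the agonists (202), at least 1.08-fold lower. None of the 4 was higher with the agonists.

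The call for Flt1 as a gene thus turned on the probe set. The usual representative here, the probe set of highest mean log2 signal, was 1454037_a_at and placed Flt1 at -0.02, whereas the probe set of highest single signal placed it at -2.08 and the mean of the 4 at -0.99. The 2 Flt1 probe sets that exceeded the floor on each array were 2.07 apart in log2 ratio. Among 4866 genes with at least 2 such probe sets, of any brightness, 8 (0.164%) had a spread as wide. The sources used here do not say which transcript forms of Flt1 each probe set detects.

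Kdr, the main signalling receptor of Vegfa in endothelium, had a single probe set at the limit of measurement, 300.0 with DMSO and 39.0 with the agonists. It was at least 1.09-fold lower against the floor, and at least 4.27-fold lower if the floor was set at the 25th percentile, 70.2. Flt4 (VEGFR3), the receptor of Vegfc, was near the floor by 1 probe set, at 279.5 and 323.5, and under it by the other. Flt1 therefore had the clearest signal of the receptor genes, and no receptor gene was higher beyond 1.5-fold.

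The neuropilins, which present VEGF to the receptors, differed from each other in how well their probe sets matched. All 4 probe sets of Nrp1 exceeded the floor on each array, and 1448943_at was 2.30-fold lower with the agonists (1072 and 466, log2 ratio -1.20, against a probe set SD of 0.44 at mean signals under 1000). The other 3 were fainter and within 1.5-fold, with signals of 463 and 561, of 302 and 433, and of 367 and 317 for DMSO and agonists. Their log2 ratios of 0.28, 0.52 and -0.21 did not follow the first, and the mean of the 4 was -0.16. A spread as wide as that of Nrp1, 1.72 on the log2 scale, occurred in 29 of 4866 genes (0.596%). Those genes had at least 2 probe sets of any brightness. A spread widens with more probe sets and with fainter signals, so the share is a rough guide. One further probe set, of platform symbol Nrp, carries an older alias of Nrp1 but the identifier of another gene, and was not counted. It had signals of 750.3 and 1370 (log2 ratio 0.87) and would turn the direction of Nrp1, as the highest-signal probe set, if it were.

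Nrp2, the co-receptor that also serves Vegfc and Flt4, was consistent over its 4 probe sets and had strong signals. The signals with DMSO and with the agonists were 17318 and 16756 for 1435349_at, 6970 and 6187 for 1426528_at, 7151 and 5846 for 1456778_at, and 1303 and 1036 for 1447343_at. All 4 were slightly lower with the agonists, with log2 ratios from -0.33 to -0.05, and none reached 1.5-fold. The ratio of the faintest, -0.33, was slightly above the probe set SD of 0.28 at its signal. Those of the brighter 3, -0.05, -0.17 and -0.29, stood beside an SD of 0.17.

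Over the family, 16 of 20 probe sets and 6 of 8 genes were measured, and the 4 left out were those of Vegfc and Pgf. Of the 16, 13 were above the floor on both arrays, while both of the fainter Flt1 probe sets and Kdr were above it with DMSO alone and could therefore only be lower. At 2-fold, 1 of the 16 was higher, against a background of 1.8% of all measured probe sets, and 3 were lower, against 1.07%. Among the 13 above the floor on both arrays, 1 was higher (background 1.63%) and 2 were lower (0.866%). At 1.5-fold, 2 were higher (7.34%), 3 were lower (5.98%) and 11 lay within it. The median log2 ratio of the 16 was -0.12, beside -0.02 for all measured probe sets. The 3 lower ones belonged to 2 genes and had a brighter signal under 2000, where 1.83% of probe sets were at least 2-fold lower. The Vegfa probe sets lay between 2000 and 10000, where 1.4% of probe sets passed 2-fold and 5.14% passed 1.5-fold on the higher side. Probe sets of 1 gene share their target, so these counts are not counts of independent measurements.

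**Figure D2:**
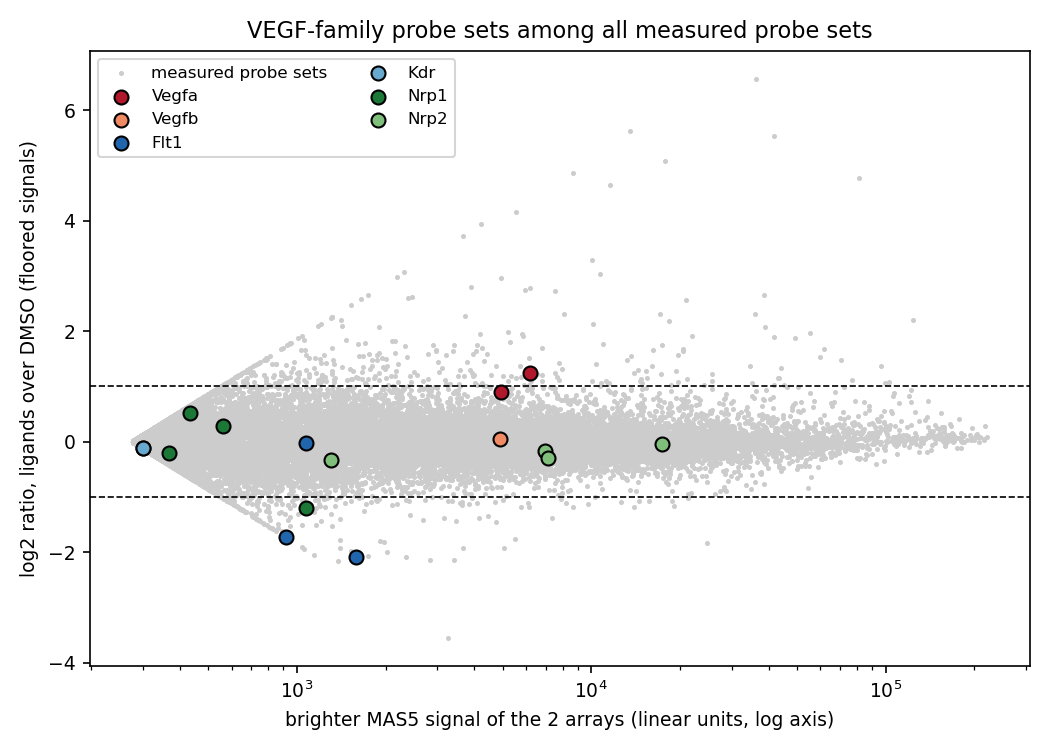
Log2 ratio of agonists over DMSO (floored signals) against the brighter of the 2 signals (log axis) for all 20731 measured probe sets in grey and the 16 measured VEGF-family probe sets in colour, with dashed lines at 2-fold. The 2 Vegfa points sit at 1.23 and 0.90 above the bulk, 2 Flt1 points and 1 Nrp1 point sit under the lower line, and the 4 Nrp2 points lie within the bulk.

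The members with a difference kept it under other floors and scalings as long as their signal stayed above the floor. Across 8 other settings, the log2 ratio of Vegfa ranged from 1.22 to 1.26 for 1451959_a_at and from 0.89 to 0.92 for 1420909_at. Where it was measured, Flt1 1419300_at ranged from -2.08 to -1.99 and Nrp1 1448943_at from -1.20 to -1.15. For these probe sets the other floors, the filters and the rescaling to 1 trimmed mean could hardly change a ratio. Their signals lay above each floor at which they were measured, and both arrays already had a trimmed mean of 2500. Only log2(signal + 32), quantile normalization and median centring could move the ratios. With a floor at the 75th percentile, 2186, no Flt1, Kdr or Nrp1 probe set was measured. With a floor of 70.2, 6 probe sets were at least 2-fold lower instead of 3, because Kdr and 2 probe sets of Vegfc then counted.

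**Figure D3:**
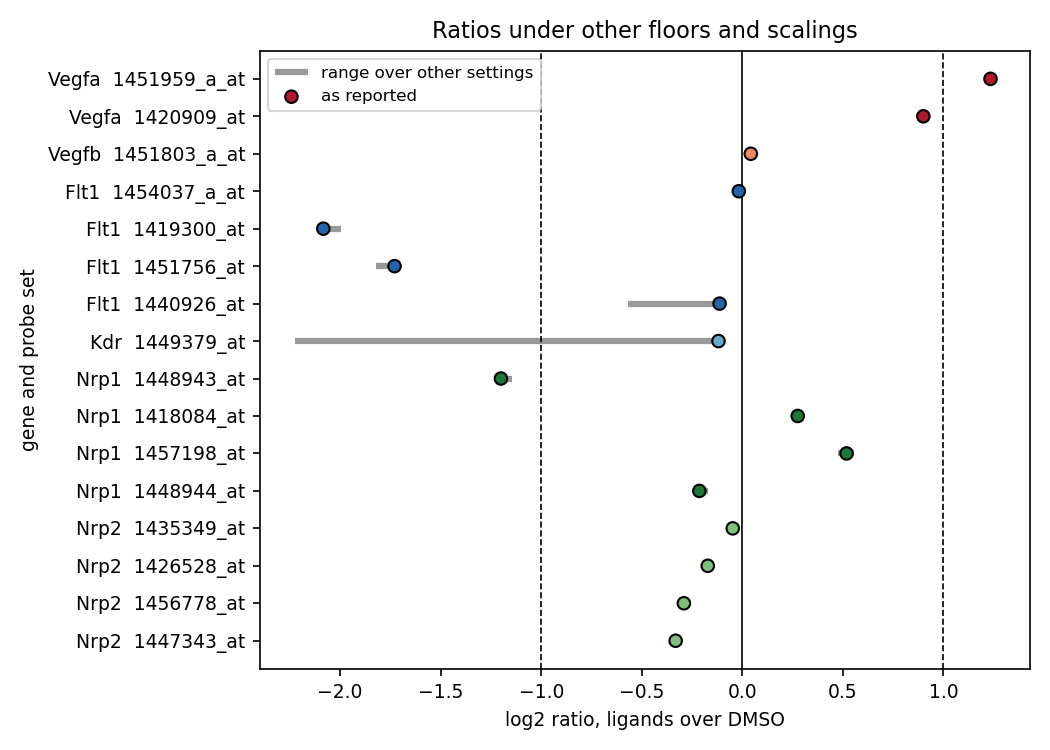
Log2 ratio of agonists over DMSO for the 16 measured VEGF-family probe sets as reported (points) and its range over the other floors, scalings and filters that gave a value (grey bars), with dashed lines at 2-fold. The bars are short for Vegfa, Nrp1 and Nrp2, while the bar of Kdr runs from -0.10 to -2.23 because its signal with the agonists lay under the floor.

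Genes downstream of the VEGF receptors showed little difference as a list. Of 66 listed genes, 59 were on the array by 1 symbol and 52 were measured, 7 further ones were not analysed here, and the highest-mean probe set stood for each gene. None was at least 2-fold higher and 1 was at least 2-fold lower, against 1.67% and 0.776% of the 11077 measured genes. At 1.5-fold, 1 was higher and 3 were lower, against 6.36% and 4.77%. The median log2 ratio was 0.01, beside -0.03 for all measured genes. Nfatc1, a calcineurin-dependent transcription factor, was 2.01-fold lower (10328 and 5127), though its 5 measured probe sets ranged from -1.57 to 0.37. Its relative Nfatc2 was 1.75-fold lower (2892 and 1657) with probe sets from -0.80 to 0.16, and the focal adhesion kinase relative Ptk2b was 1.53-fold lower (5332 and 3480) with its other probe set at 0.06. The adaptor Shc2 was at least 1.51-fold higher from under the floor (243 and 416). The phospholipases Plcg1 and Plcg2, which couple receptors to calcium, had log2 ratios of -0.19 and -0.28, and the kinases Akt1 and Map2k1 had 0.14 and 0.10.

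The semaphorin and plexin partners of the neuropilins were likewise close to even. Of 17 genes, 12 were measured, and the list had a median log2 ratio of -0.12. None reached 2-fold higher or lower, against 1.67% and 0.776% of all measured genes. Gipc1, which binds the intracellular tail of Nrp1, was 1.57-fold higher (4189 and 6561). Plxnd1, a semaphorin receptor of vessels, had a log2 ratio of 0.52 (4680 and 6702), and Plxna2 one of -0.49 with 4 probe sets from -0.90 to 0.16. The semaphorins Sema3a to Sema3e were under the floor on both arrays, while Sema3f (174 and 337) and Sema3g (312 and 194) crossed it in opposite directions.

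Regulators of Vegfa transcription and of its mRNA gave 1 gene at least 2-fold higher and none lower among 19 measured of 25 on the array, against 1.67% and 0.776% of all measured genes. That gene was Hnrnpl, an RNA-binding protein known to bind VEGFA mRNA, at 2657 with DMSO and 6291 with the agonists (2.37-fold higher, 1 probe set). The hypoxia-inducible factor Hif1a had a log2 ratio of -0.30 (20331 and 16500), with probe sets from -0.38 to 0.30, and its partner Arnt had 0.41, with probe sets from -0.20 to 0.60. Epas1 was under the floor. The oxygen-sensing hydroxylases Egln1, Egln2 and Egln3 had 0.13, 0.28 and -0.03, and Sp1, which binds GC boxes, had -0.48 with probe sets up to 0.51. The RNA-binding proteins Zfp36, Zfp36l1 and Zfp36l2, which destabilise AU-rich mRNAs, had 0.22, 0.41 and -0.40. The second probe sets of Zfp36l1 and Zfp36l2 had the opposite sign, at -0.11 and 0.84. The median of the list was 0.13.

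Of the other hypoxia-inducible genes, all 21 of the list on the array were measured, and none reached 2-fold in either direction (1.67% and 0.776% of all measured genes). Their median log2 ratio was 0.05, and 14 of the ratios were positive and 7 negative. P4ha2, a collagen prolyl hydroxylase, was 1.97-fold higher (567 and 1118), between the 2 probe sets of Vegfa in size, and it passed 2-fold with median centring. Ldha, lactate dehydrogenase, had a log2 ratio of 0.27 and Bnip3, a mitophagy receptor, 0.32, whereas the glucose transporter Slc2a1, adrenomedullin (Adm) and carbonic anhydrase 9 (Car9) had -0.12, -0.12 and -0.50. Other probe sets reached 0.42 for Slc2a1 and 0.76 for Adm.

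Other secreted regulators of vessel growth were divided. Of 31 genes on the array 17 were measured, and 2 were at least 2-fold higher and none lower, against 1.67% and 0.776% of all measured genes. At 1.5-fold, 6 were higher and 2 lower, against 6.36% and 4.77%, and the median log2 ratio was -0.04. Igf1, a growth factor, had the largest ratio, 3.29, with 4 measured probe sets from 2.46. Hbegf, a ligand of the epidermal growth factor receptor, was at least 2.94-fold higher from under the floor (248 and 813), and its other log2 ratio was 0.66. The ribonuclease angiogenin (Ang) was 1.86-fold higher at low signals (295 and 549), and Serpinf1, which encodes the anti-angiogenic protein PEDF, was 1.79-fold higher (2825 and 5052). Col18a1, the collagen from which endostatin is cut, was 1.73-fold lower (1450 and 837) with its other probe set at -1.40 on the log2 scale, past 2-fold, and Angpt2, a ligand of the Tie2 receptor, had a log2 ratio of -0.59 (4798 and 3196). The platelet-derived growth factors Pdgfa and Pdgfb had log2 ratios of -0.50 and -0.51, with other probe sets at 0.03 and -0.20. Plau and Tgfb1, also past 1.5-fold on the higher side, had 0.82 and 0.63, with other probe sets at 1.70 and 1.06. Fgf1, Fgf2, Hgf and Angpt1 were under the floor.

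**Figure D4:**
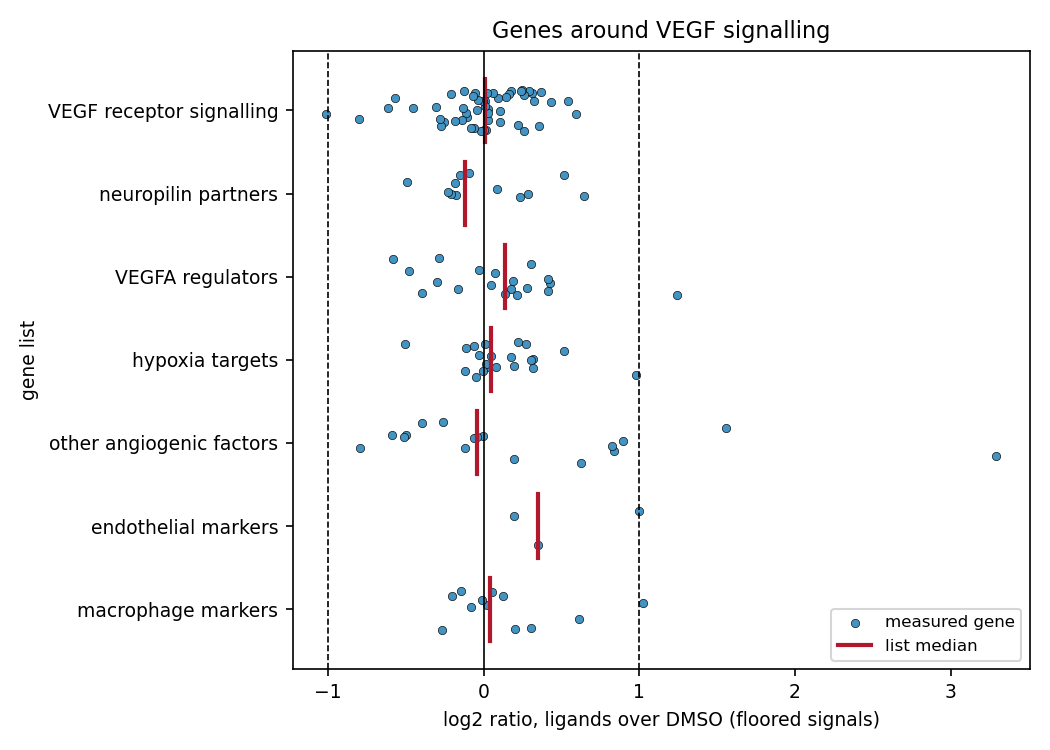
Log2 ratio of agonists over DMSO for each measured gene (points, 1 probe set a gene) of 5 lists around VEGF signalling and of the endothelial and macrophage markers, with red bars at the list medians and dashed lines at 2-fold. The medians of the 5 signalling lists lie between -0.12 and 0.13, and the points beyond 2-fold in them are Hnrnpl, Igf1 and Hbegf on the higher side and Nfatc1 on the lower side.

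Flt1 and Kdr are also genes of endothelial cells, so endothelial markers were set beside them. Of 16 such markers, 3 were measured, and the summed signal of all 16 was 2359 with DMSO and 3023 with the agonists. The defining markers Pecam1, Cdh5, Tek and Tie1 were under the floor on both arrays. Mmrn2 (398 and 793), Eng (665 and 760.4) and Erg (17.9 and 353) were measured, and Erg exceeded the floor with the agonists alone, so it could only be higher. Both samples were cultures of the RAW264.7 line and not tissue, and any part of other cell types in the Flt1 and Kdr values was not tested. Of the lymphatic endothelial markers 1 of 4, Pdpn, and of the fibroblast markers 2 of 10, Pdgfrb and Fbln1, were measured. The summed signal of the 4 was 696 and 543, and that of the 10 was 1622 and 1249. The 12 macrophage markers had a median log2 ratio of 0.04 and summed signals of 716808 and 776470. Mpeg1, a pore-forming protein of macrophages, was the one at least 2-fold higher, and none was at least 2-fold lower. Of all measured genes, 1.67% and 0.776% were.

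The search for genes near Vegfa took those above the floor on both arrays and left out RIKEN clones, predicted genes and similar clone-like names. Nearest to the pair of signals of Vegfa 1451959_a_at, by Euclidean distance of log2 signals over the 2 arrays, were Hnrnpl (0.02), Gramd1b (0.09), B4galt6 (0.14), Mdm1 (0.16) and Tmem176a (0.18). With 2 arrays, this likeness describes a level and a ratio alone. The 2 Vegfa probe sets themselves differed by 0.33 in log2 ratio.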

How the data were processed

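Expression was measured on 1 array per condition. The deposited values are intensities on a linear scale, made by the authors with MAS5, per the submitters' processing notes; its version and settings are not given in the sources used here, and detection calls were not used. MAS5 gives each probe set 1 signal and scales whole arrays, so a ratio compares a gene with the bulk of its array. The values were used as deposited. Probe sets were named from the platform annotation: 34945 had 1 symbol, 932 several, 9160 none and 64 were controls; 34741 symbols were updated by gene identifier to GRCm38.p6. Log2 ratios are agonists over DMSO after the floor, and where not all probe sets are listed, that with the highest mean log2 signal stands for the gene. Motifs were searched in the RefSeq promoter table of GRCm38.p6.

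The members and lists were chosen with earlier results of these data known. Named by rule were all members, Vegfd and Flt4, and up to 4 largest and 4 smallest ratios of at least 1.5-fold in each list. Abca1, Abcg1, Srebf1 and Nr1h3, as a check of the ligands, and the 5 genes nearest to Vegfa were also named by rule. Other list genes named, Mylip included, and the signal limits of 2000 and 10000 were chosen after the values were seen. No p-values were computed, since each group had 1 array. The procedure was tested on simulated data, with changes larger than 2-fold planted only in probe sets well above the floor. That test did not cover fainter probe sets or changes near 2-fold. Alternatives were floors at the 25th and 75th percentiles, log2(signal + 32), quantile normalization, median centring, rescaling to 1 trimmed mean, probe sets over the floor on each array, means over probe sets, leaving out _s_at and _x_at probe sets, and thresholds of 1.5-fold and 3-fold. Python 3.11.15, numpy 2.4.6, pandas 2.3.3 and matplotlib 3.10.9 were used.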

Additional observations from a re-analysis of the deposited data

How the results depend on the processing

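The log2 ratio of Vegfa lay between 1.07 and 1.26 over 11 alternatives. Many of these, such as the other floors and the rescaling, could hardly move it by construction. Over 11 alternatives the list median was 0.004 to 0.03 for receptor signalling, 0.07 to 0.17 for Vegfa regulators and 0.05 to 0.18 for hypoxia targets. That of the neuropilin partners was 0.21 with the floor at the 75th percentile, and that of the other angiogenic factors 0.28 with the floor at the 25th percentile and 0.43 with log2(signal + 32).

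Family probe sets at least that far higher numbered 2 at 1.5-fold and 0 at 3-fold; those at least 2-fold lower numbered 6 with the floor at the 25th percentile or log2(signal + 32) and 0 with the floor at the 75th percentile. Counting the probe set of symbol Nrp as Nrp1, an alternative chosen after seeing the data, turned Nrp1 to 0.87; the other added alternative, the probe set of highest single signal, moved Flt1 to -2.08.

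Counts of receptor signalling genes were 1 higher with the floor at the 25th percentile, log2(signal + 32) or 1.5-fold; 3 were lower at 1.5-fold, and 0 were lower with quantile normalization, median centring, means over probe sets or 3-fold. Neuropilin partners numbered 1 higher with log2(signal + 32) or 1.5-fold and 1 lower with log2(signal + 32). Vegfa regulators numbered 2 higher and 1 lower with the floor at the 25th percentile or log2(signal + 32), and 0 higher at 3-fold. Hypoxia targets numbered 1 higher with median centring or 1.5-fold. Other angiogenic factors higher numbered 5 with the floor at the 25th percentile, 6 with log2(signal + 32) or 1.5-fold, and 1 with the floor at the 75th percentile, probe sets over the floor on each array or 3-fold; those lower numbered 2 with the floor at the 25th percentile or 1.5-fold and 1 with log2(signal + 32), means over probe sets or without _s_at and _x_at probe sets. Lower floors and no floor count weaker signals and looser thresholds smaller ratios by construction. Median centring adds 0.02 to every log2 ratio, and the filters change which probe sets count. The cause of the other changes was not tested. No paired analysis was possible because each group had 1 array. Signal over background limits Vegfc, Pgf and Kdr most.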
